A study of Homo sapiens with 6 samples.

Results

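The transcriptome described here is that of cells given the vehicle DMSO, labelled as BxPC-3, a line from a human pancreatic ductal adenocarcinoma. Its members are the genes at 1 FPKM (fragments per kilobase of the gene, relative to sequencing depth as the authors scaled it) or more in each of the 3 DMSO libraries, ranked by mean FPKM. They number 11989 of the 58735 genes in the deposited table, or 20.4%. Among protein-coding genes 10032 of 19951 were members, or 50.3%. A further 30930 genes, 52.7% of the table, were at 0 in all 3 libraries, and 4776 of them, 23.9% of the protein-coding genes, were protein-coding. The series also holds 3 libraries from cells given the PRMT5 inhibitor GSK3326595, which are not described here. All of the cells were grown in RPMI-1640 with fetal bovine serum. The labels name no transgene, no genetic change and no treatment time. They do not say whether the 3 DMSO libraries came from separate cultures, so the SDs given here (n = 3) may measure technical spread alone. The series' design text speaks of a knockdown of PRMT5, whereas the sample labels name only the inhibitor and its control.

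BxPC-3 is known as an epithelial line that has lost both CDKN2A and SMAD4 by homozygous deletion. It is known for E-cadherin (CDH1) and EPCAM at cell contacts, for keratin 19 and for the adhesion protein CEACAM6, all common in cells of the pancreatic duct. Keratins are the intermediate filament proteins of epithelial cells and form obligate pairs of a type I and a type II chain, so the set that a cell makes reflects its lineage. CDKN2A encodes the cell cycle inhibitor p16INK4A and, from an upstream first exon, the growth-inhibiting protein ARF. SMAD4 is the shared partner of the SMAD proteins that carry TGF-beta signals.

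The measured transcripts differed from that description on several points. CDKN2A had 107.96, 95.6 and 118 FPKM in DMSO replicates 1, 2 and 3, and SMAD4 had 3.67, 3.90 and 3.34. KRT19, CEACAM6 and CEACAM5 had no read in any of the 3 libraries, and CDH1 and EPCAM stayed below 0.3 FPKM in each. The cells are therefore called the DMSO cells below. Their most abundant nuclear transcript was that of FOLR1, the folate receptor alpha.

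Recovered reads ran from 14201282 to 15302555 per library, 44362145 in all. A count of 0 over the 3 libraries allows up to 3 reads, and the limits given beside genes at 0 are those 3 reads expressed in FPKM. They cover counting error only. Mitochondrially encoded genes held 16.9% to 17.9% of the summed FPKM, but 4.70% to 5.01% of the reads, since FPKM divides by gene length and short genes weigh more in it than in reads. The libraries differed by more than sampling noise: the chi-square per degree of freedom was 2.48 for replicates 1 and 2, 6.44 for 1 and 3, and 7.31 for 2 and 3. Replicate 3 was the highest of the 3 libraries for 2473 of the 4583 members at 10 FPKM or more, replicate 1 for 1057 and replicate 2 for 1053.

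Members spanned a wide range of abundance. Their median was 6.73 FPKM, with quartiles of 3.07 and 16.4 FPKM. Most of them, 7406 or 61.8%, had a mean of 1 to 10 FPKM, and 4228 lay from 10 to 100 FPKM. Only 332 lay from 100 to 1000 FPKM and 23 at 1000 FPKM or more, and those 23 genes held 20.97% of the summed FPKM. The 50 most abundant genes held 27.3% ± 0.198 (SD, n = 3) of it, and 447 genes held the first 50%. Among nuclear genes alone, 814 held the first 50%. Beside the protein-coding members stood 472 of 5583 antisense genes, 414 of 10191 processed pseudogenes and 267 of 7629 lincRNAs. Among short RNA genes, 99 of 1879 miRNA genes and 89 of 943 snoRNA genes were members. The share over all genes was 20.4%. For the 345 members shorter than 200 bases, 1 FPKM is worth only a few reads.

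**Figure D1:**
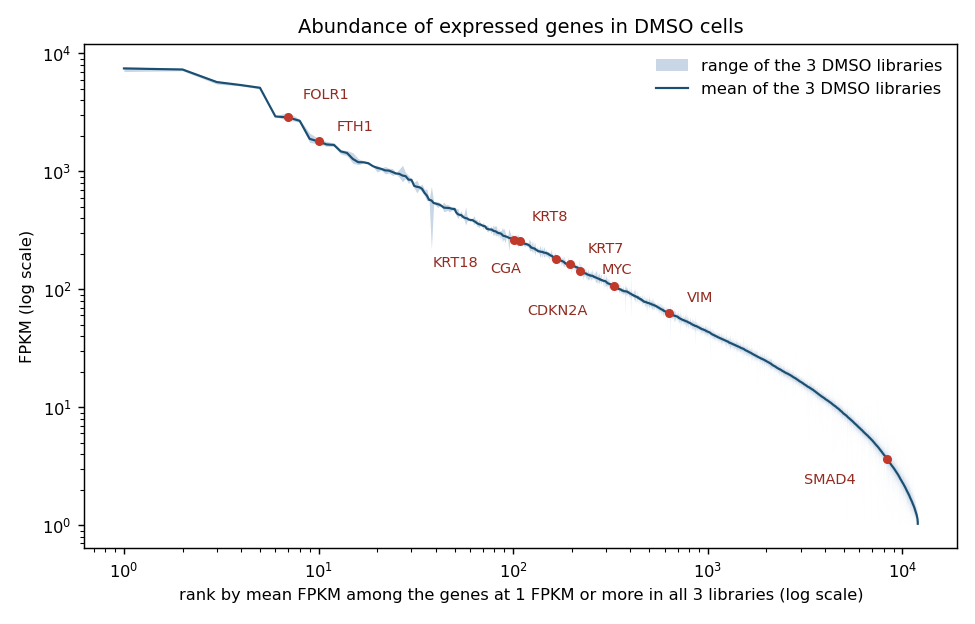
Mean FPKM (y axis, log scale) of the 11989 members against their rank (x axis, log scale), with the range of the 3 DMSO libraries as a band and selected genes as red points. FOLR1 stands at rank 7, above FTH1, and SMAD4 lies among the lower ranks at 3.64 FPKM.

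Of the 25 most abundant genes, 16 were encoded by the mitochondrial genome. The large mitochondrial rRNA MT-RNR2 led with 7456 ± 380 FPKM (SD, n = 3). It was followed by MT-ND4 at 7305 ± 168 FPKM, a subunit of respiratory complex I, and by MT-CO1 at 5714 ± 191 FPKM, a catalytic subunit of cytochrome c oxidase. MT-CO2, MT-ND4L, MT-ATP6, MT-CO3 and MT-ND1 lay between 1674 and 5386 FPKM. The levels of short mitochondrial tRNA genes such as MT-TC, at 1886 FPKM from 1717 to 2177 reads per library, rest on far fewer reads than those of long genes.

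FOLR1 (ENSG00000110195, chr11:72189558-72196323, hg38) had 2714, 2713 and 3167 FPKM in DMSO replicates 1, 2 and 3. Replicates 1 and 2 were alike and replicate 3 was higher. Its mean of 2865 ± 262 FPKM (SD, n = 3) ranked 7 among all genes and 1 among nuclear genes. It took 0.479% ± 0.0353 of all recovered reads, with 65470 to 77274 reads per library. FOLR1 was 1.60 ± 0.181 times as abundant per length as FTH1, the ferritin heavy chain and the next nuclear gene, and the ratio was above 1 in each library. FOLR1 shares few sequences with other genes: 1.34% of its 50-base windows occurred in another annotated gene. For FTH1 57.4% did so, so its level is less certain, but most of that sharing (49.3%) was with BEST1, which had 0.218 FPKM.

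FOLR1 stood apart from the other genes that move folate into cells. SLC19A1, the reduced folate carrier, had 4.99 ± 0.707 FPKM, so that the FOLR1 level was 577 ± 45.2 times higher. The proton-coupled folate transporter SLC46A1 had a mean of 0.656 FPKM, the receptors FOLR3 and FOLR2 had 0.285 and 0.144 FPKM, and IZUMO1R was at 0. In all, 2 of the 6 folate genes were members, against 50.3% of all protein-coding genes.

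The other leading nuclear transcripts encode proteins of general cell upkeep. TMSB10, an actin-binding thymosin, had 1691 ± 87.5 FPKM and the elongation factor EEF2 had 1275 ± 143. GAPDH of glycolysis had 1196 ± 74.8 FPKM, the ferritin light chain FTL 1194 ± 31.0 and EEF1A1 1173 ± 26.5. The ribosomal protein genes RPS2 and RPL7A had 987 ± 66.9 and 960.04 ± 12.2 FPKM. Of the 60 most abundant nuclear genes 19 encode ribosomal proteins, and 3 are processed pseudogenes of such genes, whose reads cannot be told apart with certainty from those of the source gene. All 25 genes listed for proteins that every cell makes were members.

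Among the keratins of simple epithelia KRT8, KRT18 and KRT7 were abundant, and the others listed were below 1 FPKM or at 0. KRT8 (ENSG00000170421, chr12:52897187-52949954) had 257.66, 252.78 and 282.71 FPKM, a mean of 264 ± 16.1. Its partner KRT18 (ENSG00000111057, chr12:52948871-52952901) had 254.4, 243.68 and 266.61 FPKM, a mean of 255 ± 11.5. The ranges of this pair overlapped, and their ratio was 1.04 ± 0.0238. Keratin 7, a type II keratin of ducts and glands, was lower: KRT7 (ENSG00000135480, chr12:52232520-52252186) had 158.51, 153.98 and 177.27 FPKM, and its highest library lay below the lowest KRT8 library. KRT8 was 1.62 ± 0.0238 times as high as KRT7. KRT8 and KRT18 have many processed copies in the genome. Of the 50-base windows of KRT18, 24.5% occurred in another annotated gene, among them 12.7% in KRT8, which overlaps it on the other strand. Of those of KRT8, at least 10.2% occurred in another gene. The split of reads among copies is thus uncertain. With no strand setting given, reads of KRT8 and KRT18 may also be mixed, which limits their ratio.

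KRT19 (ENSG00000171345, chr17:41523617-41528308), the smallest type I keratin and a standard marker of ductal cells, had 0 reads in all 3 libraries, which allows at most 0.0285 FPKM. Only 0.977% of its 50-base windows occurred in another annotated gene. KRT20 and KRT23 had means of 0.252 and 0.335 FPKM. In all, 3 of the 6 simple keratins were members and 1 was at 0, against 50.3% and 23.9% of all protein-coding genes.

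Among keratins of stratified epithelia 5 of 22 (22.7%) were members and 10 (45.5%) were at 0, against 50.3% and 23.9% of all protein-coding genes. KRT17, a type I keratin of basal cells and of wound edges, had 230.42, 211.48 and 258.08 FPKM, a mean of 233 ± 23.4, which was 1.43 ± 0.0470 times that of KRT7. KRT10 had 41.1 ± 1.52 FPKM and KRT80 had 36.4 ± 3.44, with overlapping ranges. KRT16 had 5.54 ± 0.568 FPKM. KRT5, the basal type II keratin, and KRT6A, KRT6B and KRT6C, the usual partners of KRT16 and KRT17, were at 0. KRT14 averaged 0.00987 FPKM. Of the 26 hair and sheath keratins 3 (11.5%) were members, led by KRT34 at 14.8 ± 1.39 FPKM. The other members, KRT81 and KRT86, are near copies of each other, so their levels of 3.61 and 3.51 FPKM are uncertain.

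**Figure D2:**
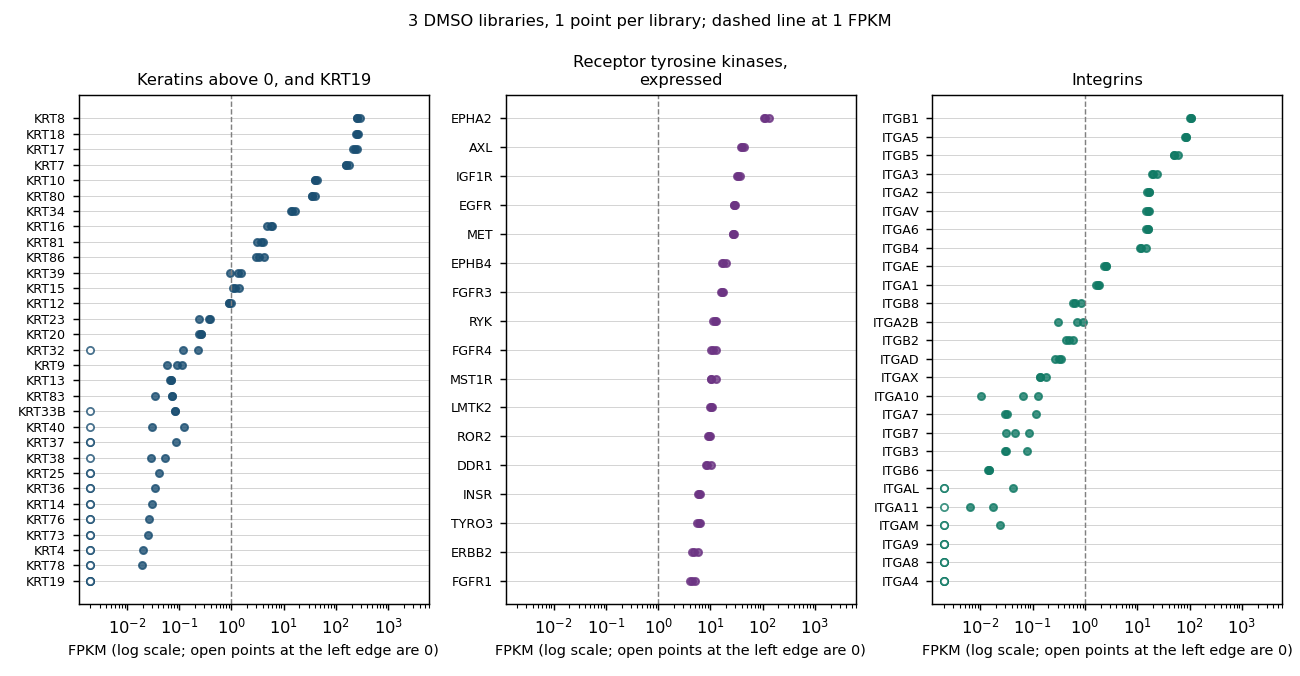
FPKM (x axis, log scale) of keratins, expressed receptor tyrosine kinases and integrins, 1 point per DMSO library, with 1 FPKM as a dashed line and values of 0 as open points at the left edge. KRT8, KRT18, KRT17 and KRT7 lie above 150 FPKM while KRT19 is at 0, and EPHA2 leads the receptor tyrosine kinases.

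Genes of the epithelial programme of ductal carcinoma lines ranged widely in level. Of the 26 listed, 12 (46.2%) were members, 5 (19.2%) were at 0 and 9 lay between. The shares of members and of genes at 0 were near the 50.3% and 23.9% of all protein-coding genes. The list's median was 0.716 FPKM, against 1.21 over all protein-coding genes. The most abundant were SFN (14-3-3 sigma) at 162 ± 15.2 FPKM, the calcium-binding protein S100P at 128 ± 9.34, the epithelial ETS factor ELF3 at 43.2 ± 2.40, the laminin chain LAMB3 at 34.5, the adaptor subunit AP1M2 at 24.3 and the membrane mucin MUC1 at 21.8 ± 1.80. Claudins CLDN7 and CLDN4 had 12.4 and 4.72 FPKM, and the splicing regulator ESRP2 had 11.6.

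The adhesion molecules that define such cells were near or at 0. EPCAM (ENSG00000119888, chr2:47345158-47387601) had 0.228, 0.108 and 0.295 FPKM, from 9, 4 and 11 reads. CDH1 (ENSG00000039068, chr16:68737225-68835548), the E-cadherin of adherens junctions, had 0.124, 0.0884 and 0.142 FPKM, from 12, 8 and 13 reads. No library reached 1 FPKM for either gene. The 5 genes at 0 were KRT19, CEACAM6, CEACAM5, the splicing regulator ESRP1 and the epithelial transcription factor GRHL2, with limits of 0.0285, 0.0218, 0.0199, 0.0136 and 0.0110 FPKM. For CEACAM6, 6.99% of the 50-base windows occurred in another gene, and for CEACAM5 16.3%. RAB25, EHF and SPINT1 had means from 0.0125 to 0.0628 FPKM. In a bulk library fewer cells of a type and less RNA per cell cannot be told apart.

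Some genes of mesenchymal cells were members beside the keratins. Of the 23 listed, 10 (43.5%) were members and 6 (26.1%) were at 0, near the 50.3% and 23.9% of all protein-coding genes, and the list's summed level was 336 to 341 FPKM per library. S100A4 had 201 ± 3.18 FPKM. VIM (ENSG00000026025, chr10:17228259-17237593), the vimentin of mesenchymal intermediate filaments, had 64.155, 66.117 and 58.06 FPKM, with replicate 3 the lowest, and a mean of 62.8 ± 4.20. Of its 50-base windows 20.7% occurred in another gene, chiefly its antisense neighbour. The VIM level was 558 ± 173 times that of CDH1, a ratio whose spread comes with the few CDH1 reads. SNAI1, a repressor of E-cadherin, had 34.0 ± 3.69 FPKM. Fibronectin FN1 had 9.05 ± 0.699 FPKM. TWIST2, ZEB1, TWIST1 and SNAI2, repressors of the same class, lay between 4.64 and 6.33 FPKM. N-cadherin CDH2 had 4.32 ± 0.192 FPKM.

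Of 41 cell junction genes 22 (53.7%) were members, near the 50.3% of all protein-coding genes. Plakoglobin JUP had 203 ± 14.6 FPKM, alpha-catenin CTNNA1 65.7, the desmosomal protein PERP 55.7, the desmoglein DSG2 34.5, beta-catenin CTNNB1 31.3 and NECTIN2 21.4. P-cadherin CDH3 was no member, at 0.698 FPKM. CLDN1 had 4.53 ± 0.486 FPKM.

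**Figure D3:**
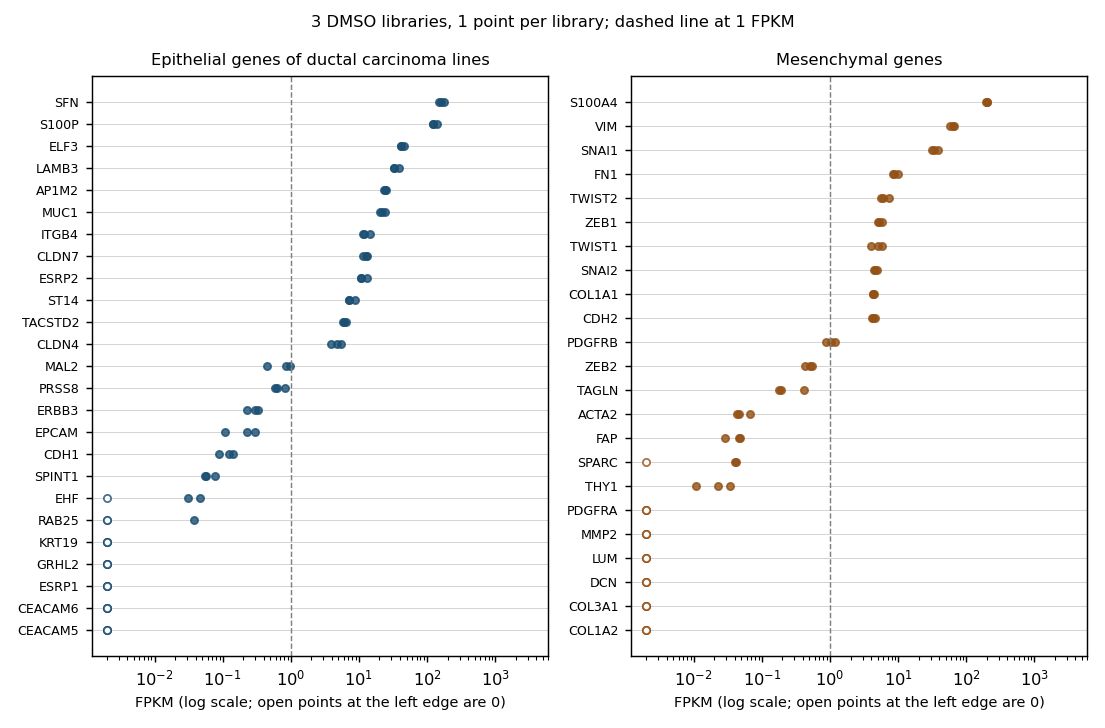
FPKM (x axis, log scale) of listed epithelial genes of ductal carcinoma lines and of mesenchymal genes, 1 point per DMSO library, with 1 FPKM as a dashed line and values of 0 as open points at the left edge. SFN and S100P lie above 100 FPKM, EPCAM and CDH1 below 0.3 and GRHL2, ESRP1, KRT19, CEACAM5 and CEACAM6 at 0, while S100A4 and VIM lead the mesenchymal genes.

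Transcription factors that form the pancreas were mostly low. Of 26 listed, 6 were members and 13 were at 0, against 49.1% members and 22.0% at 0 among the 1553 transcription factors that the deposited table assigns to a family. PDX1, needed for the pancreas to form, was at 0 with a limit of 0.0266 FPKM, and the endoderm factor FOXA2 was at 0 with a limit of 0.0256. The others at 0 were PTF1A and RBPJL of acinar cells, NEUROG3, NEUROD1, NKX2-2, NKX6-1 and PAX4 of the endocrine lineage, and NR5A2, GATA4, ONECUT1 and FOXA3. The 6 members were ONECUT2 at 5.84 ± 0.195 FPKM, BHLHA15 at 4.83, GATA6 at 3.80 ± 0.183, the duct factor SOX9 at 3.67 ± 0.651, MAFA at 3.30 and ISL1 at 1.58.

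Secretory genes of ducts and mucous cells gave 6 members of 26 and 7 genes at 0, against 50.3% and 23.9% of all protein-coding genes. The members were the protease inhibitor SLPI at 54.1 FPKM, the membrane mucin MUC13 at 51.3 ± 1.02, PSCA at 40.9 ± 3.83, mesothelin MSLN at 36.9 ± 4.32, MUC1 and TSPAN1. The trefoil genes TFF1, TFF2 and TFF3 were at 0, as were CTSE, MUC20, SPP1 and CA2.

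Marker lists of other cell types were low with a pair of exceptions. Over all protein-coding genes 50.3% were members and 23.9% were at 0. None of 14 immune, 8 endocrine or 9 lung, thyroid, breast and prostate markers was a member. Without replicate 3, 1 of these last 9 was. Acinar markers gave 1 member of 13 (SPINK1, 2.67 FPKM), endothelial markers 1 of 8 (CDH5, 1.24) and neural and melanocyte markers 1 of 9 (MBP, 1.43). Placental genes gave 5 members of 16 with 5 at 0, and their summed level was 293 to 310.17 FPKM per library. CGA, the alpha chain shared by the glycoprotein hormones, had 179, 177.27 and 188.52 FPKM, a mean of 182 ± 6.05, and none of its 50-base windows occurred in another gene. The placental alkaline phosphatase ALPP had 114.3, 109.68 and 116.91 FPKM. The intestinal form ALPI, the 1 member among 12 liver and intestine markers, had a mean of 97.0 FPKM, and the near copy ALPG had 1.21. ALPP shares 33.6% of its windows with other genes, mainly ALPG, whereas ALPI shares 1.45%. INSL4 and PSG1 had 1.81 and 1.25 FPKM. Female reproductive tract markers gave 2 members of 9, FOXL2 at 5.75 FPKM and OVGP1 at 3.13.

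Receptor tyrosine kinases gave 17 members of 56 (30.4%), with 14 (25%) at 0, against 50.3% and 23.9% of all protein-coding genes. EPHA2, an ephrin receptor, had 110.72, 105.86 and 132.94 FPKM, a mean of 116.51 ± 14.4, and was 2.89 ± 0.171 times as high as the next, AXL, at 40.2 ± 2.73. The insulin-like growth factor receptor IGF1R had 34.0 ± 1.91 FPKM. EGFR had 28.3 ± 0.614 FPKM and the hepatocyte growth factor receptor MET 27.4 ± 0.498, with overlapping ranges. EPHB4 had 18.1 FPKM. ERBB2 had 4.97 ± 0.606 FPKM.

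Integrins gave 10 members of 26 (38.5%) and 3 (11.5%) at 0, against 50.3% and 23.9% of all protein-coding genes. The shared beta chain ITGB1 had 104 ± 3.17 FPKM and the fibronectin-binding ITGA5 83.7 ± 2.24. ITGB5 had 54.005 FPKM and ITGA3 21.2. ITGA2 at 16.5 and ITGAV at 15.8 FPKM overlapped. Of 81 other surface proteins listed, 74 (91.4%) were members, against the same 50.3%. The complement regulator CD55 had 349 ± 6.38 FPKM, basigin BSG 299 ± 10.0 and the tetraspanin CD63 196 ± 11.9, followed by ALPP, TNFRSF12A at 99.4 and the transferrin receptor TFRC at 97.8. PROM1, VCAM1 and GPC3 were at 0.

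Of the 1553 transcription factors that have a family assigned, 762 (49.1%) were members and 342 (22.0%) were at 0. By family, 289 of 630 C2H2 zinc finger genes were members, 50 of 193 homeobox genes (79 at 0), 44 of 101 bHLH genes, 35 of 48 bZIP genes, 20 of 47 forkhead genes and 17 of 29 ETS genes. Among 196 listed factors 163 were members. The highest were the cold shock protein YBX1 at 507 ± 8.08 FPKM, ID1, an inhibitor of bHLH factors, at 321 ± 24.1, BHLHE40 at 241 ± 9.02, the AP-1 subunit JUNB at 202 ± 11.1, CEBPB at 153 ± 8.66 and MYC at 144 ± 7.73. HMGA1 at 399, CNBP at 391 and HMG20B at 269 FPKM stood among them by the family column. These 3 were named after their values were seen.

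Homeotic HOX genes, which record position along the body axis, gave 15 members of 39 (38.5%), with 8 at 0, against 50.3% and 23.9% of all protein-coding genes. The 4 highest were HOXC genes: HOXC10 had 61.958, 62.136 and 60.181 FPKM, a mean of 61.4 ± 1.08, HOXC13 had 23.045, HOXC11 15.7 and HOXC9 10.3. HOXC10 was 2.67 ± 0.0947 times as high as HOXC13. HOXC12, which lies between HOXC13 and HOXC11, was no member, at 0.0331 FPKM. HOXA11 and HOXA10 had 6.96 and 5.17 FPKM.

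Of 66 tumour suppressor genes 59 (89.4%) were members and 1, DCC, was at 0, against 50.3% and 23.9% of all protein-coding genes. The list median was 6.08 FPKM, against 1.21. CDKN2A (ENSG00000147889, chr9:21967753-21995301) was the most abundant of them, with a mean of 107 ± 11.2 FPKM from 6062 to 7562 reads per library. The gene-level value does not separate p16INK4A from ARF. Of its 50-base windows 7.16% occurred in another gene, mainly the antisense gene CDKN2B-AS1, which had 0.260 FPKM. The next were the cyclin-dependent kinase inhibitor CDKN1A at 63.2 ± 3.59 FPKM, DAXX at 28.4, RBM10 at 27.3, CDKN1B at 25.3 and VHL at 25.003. RB1, which restrains entry into the cell cycle, had 6.16 ± 0.589 FPKM. SMAD4 (ENSG00000141646, chr18:51028394-51085045) had a mean of 3.64 ± 0.283 FPKM from 648 to 754 reads, and its range overlapped those of APC above it and MAP2K4 below it. Of its windows 5.84% occurred in another gene, a readthrough model that was at 0. Listed suppressors below the threshold included CDH1, ARID1B at 0.788, ACVR2A at 0.767 and FHIT at 0.169.

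The promoters of both genes are shown because the labelled line is known to lack them. They are the RefSeq windows of assembly GRCh38.p14, from 250 bases before to 50 after a start, written 5′ to 3′ on the gene's strand, with CG dinucleotides in capitals. The upstream CDKN2A start, of the ARF transcript, lies at chr9:21995275-21995574 on the minus strand and holds 28 CG dinucleotides. The downstream start, of the p16INK4A transcript, lies at chr9:21974808-21975107 on the minus strand and holds 26. The SMAD4 window lies at chr18:51029963-51030262 on the plus strand and holds 28.
CDKN2A upstream start: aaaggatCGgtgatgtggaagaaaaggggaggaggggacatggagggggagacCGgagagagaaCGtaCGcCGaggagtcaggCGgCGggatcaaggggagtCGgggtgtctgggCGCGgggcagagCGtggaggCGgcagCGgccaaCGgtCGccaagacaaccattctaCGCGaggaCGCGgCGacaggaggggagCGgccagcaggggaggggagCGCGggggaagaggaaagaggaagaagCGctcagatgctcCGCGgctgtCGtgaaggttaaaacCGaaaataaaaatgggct
CDKN2A downstream start: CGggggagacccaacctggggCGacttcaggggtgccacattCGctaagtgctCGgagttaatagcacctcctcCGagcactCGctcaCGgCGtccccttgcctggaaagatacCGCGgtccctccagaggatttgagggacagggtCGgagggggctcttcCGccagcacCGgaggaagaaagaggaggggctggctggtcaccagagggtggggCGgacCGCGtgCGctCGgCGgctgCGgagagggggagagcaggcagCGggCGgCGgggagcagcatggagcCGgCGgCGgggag
SMAD4: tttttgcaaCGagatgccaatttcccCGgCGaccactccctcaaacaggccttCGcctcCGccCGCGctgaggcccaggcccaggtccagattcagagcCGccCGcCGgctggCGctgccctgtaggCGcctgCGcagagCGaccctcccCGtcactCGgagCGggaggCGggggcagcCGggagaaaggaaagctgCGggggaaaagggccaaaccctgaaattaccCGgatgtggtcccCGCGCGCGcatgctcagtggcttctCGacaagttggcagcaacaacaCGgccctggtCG

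Neighbouring genes also carried reads. On chromosome 9, 23 other protein-coding genes lie in part or whole within 1 Mb of CDKN2A. Of these, 5 were members, against 50.3% of all protein-coding genes. Another 16 were at 0, against 23.9%, and 15 of them were genes of the type I interferon cluster. IFNE of the same cluster was below the threshold at 0.258 FPKM, from 3, 5 and 9 reads, and so was DMRTA1 at 0.612. CDKN2B, which encodes the related inhibitor p15, had 10.9, 12.3 and 12.8 FPKM, and CDKN2A was 8.97 ± 1.10 times as high. MTAP, of the methionine salvage pathway, had 2.64, 2.41 and 2.22 FPKM. FOCAD, HACD4 and KLHL9 had 4.37, 1.34 and 6.13 FPKM. On chromosome 18, 7 of the 11 other protein-coding genes within the same distance of SMAD4 were members and 1, the readthrough model, was at 0. These counts stand against the same 50.3% and 23.9%. CXXC1, a CpG-binding protein, had 31.5 FPKM and MBD1, a methyl-CpG-binding protein, 10.8. MEX3C had 5.90, SKA1 4.51, MAPK4 1.90, ME2 1.58 and MYO5B 1.05 FPKM, and ELAC1 was below the threshold at 0.170.

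**Figure D4:**
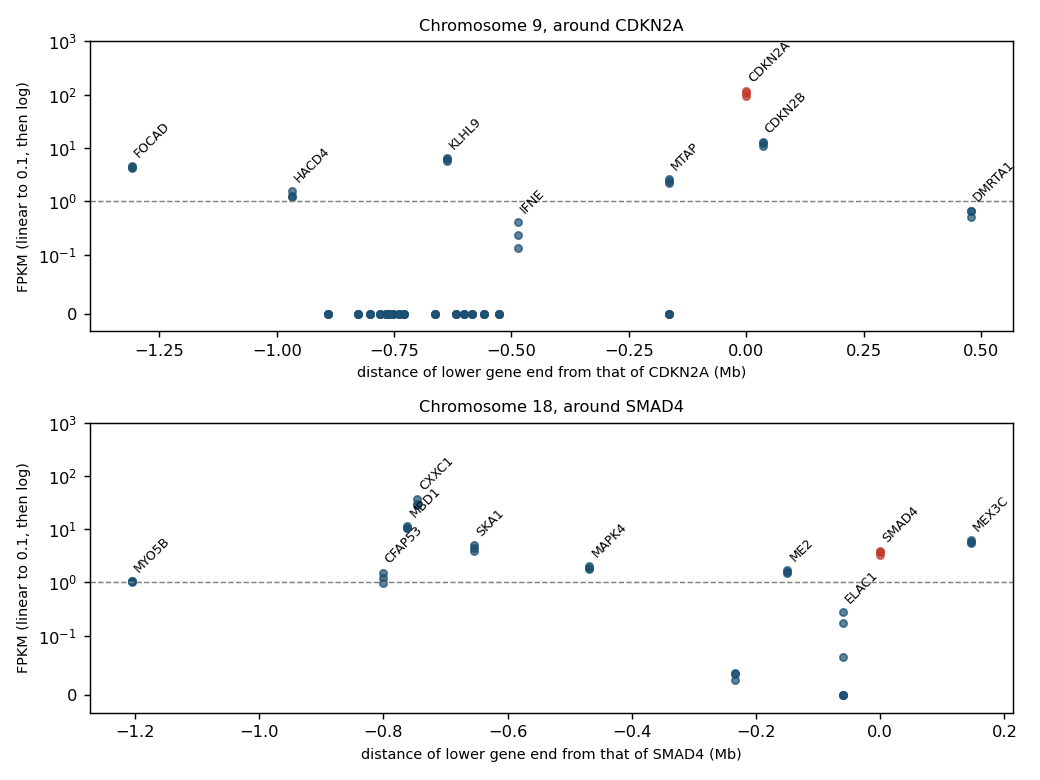
FPKM (y axis, linear to 0.1 and log above) of protein-coding genes against the distance of their lower end from that of CDKN2A (top) and SMAD4 (bottom) in Mb, 1 point per DMSO library, the anchor gene in red and 1 FPKM as a dashed line. CDKN2A, at 95.6 to 118 FPKM, is the highest in its window, and SMAD4, at 3.34 to 3.90, lies below CXXC1, MBD1, MEX3C and SKA1.

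Oncogenes gave 31 members of 38 (81.6%), against 50.3% of all protein-coding genes, with MYCN and CCND2 at 0. The apoptosis inhibitor MCL1 had 170 FPKM, MYC 144, the G protein alpha subunit GNAS 114, the mitotic kinase AURKA 46.9, CDK4 36.9 and CCND3 34.4. The targets and partners of the study were all members. PRMT5, the arginine methyltransferase, had 23.2, 24.6 and 26.2 FPKM, and STK3, which encodes MST2, had 2.88, 2.63 and 2.42. The other Hippo kinases STK4, LATS1 and LATS2 had 12.6 ± 0.472, 2.78 ± 0.123 and 8.10 ± 0.694 FPKM, and their effector YAP1 had 24.5 ± 1.47. PRMT5, STK3, STK4, LATS1, LATS2 and YAP1 were named for the study's subject.

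Promoter windows of the members were mostly CpG-rich. A RefSeq promoter window was found for 8243 of the 10032 protein-coding members (82.2%) and for 3330 of the 4776 protein-coding genes at 0 (69.7%), so the values of the genes at 0 cover too few of them for a comparison to stand. A window was called CpG-rich at 50% GC or more with a CpG observed over expected ratio of 0.6 or more, and shares are averaged over a gene's starts. CpG-rich windows made up 83.2% among protein-coding members, against 63.0% over all protein-coding genes with a window and 46.9% of all windows of any gene. The motif TATAAA, on either strand, was in 5.25% among these members, against 9.87% over all protein-coding genes with a window and 11.5% of all windows. The motif GGGCGG, on either strand, was in 72.1%, against 58.4% and 44.95% of the same sets. Windows were found for 76.8% of all protein-coding genes. Among genes at 0 with a window, 28.5% were CpG-rich and 20.5% held TATAAA. Members at 1 to 10 and at 10 to 100 FPKM had 80.9% and 86.5% CpG-rich windows and 4.87% and 5.22% with TATAAA. Members at 100 FPKM or more, 77.6% of which had a window, had 83.8% CpG-rich windows and 12.6% with TATAAA.

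**Figure D5:**
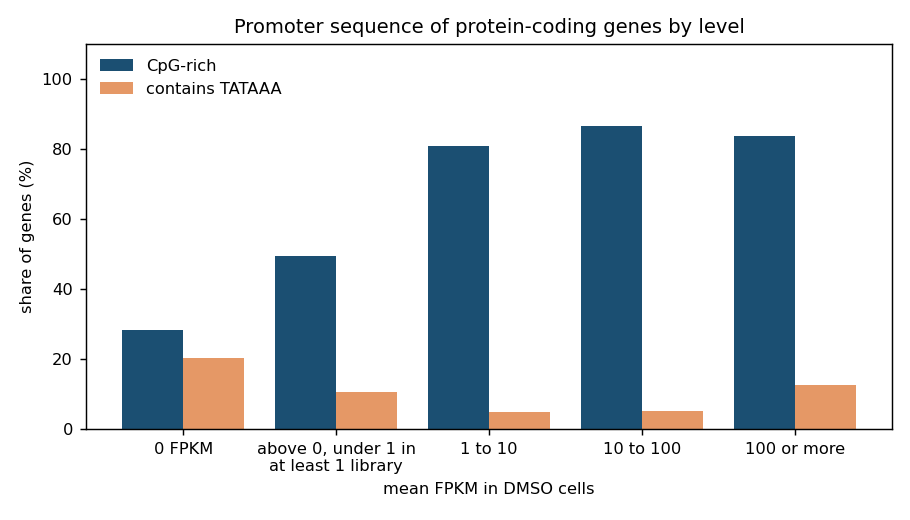
Share of protein-coding genes (y axis, %) whose 300-base RefSeq window is CpG-rich or holds TATAAA, by mean FPKM in the DMSO cells (x axis). The share of CpG-rich windows is 28.5% for genes at 0 and 80.9% to 86.5% for members, and fewer than 80% of genes had a window in the 2 leftmost groups and in the rightmost.

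The windows of VIM, at 62.8 FPKM, and of the pair CEACAM6 and CEACAM5, both at 0, are shown as examples of differing CG content, again with CG dinucleotides in capitals. VIM (chr10:17227991-17228290, plus strand) holds 10 and, at 48% GC, is not CpG-rich by the definition above. Only this window, at the lower end of the gene, was found for VIM, which has 10 annotated transcripts. It may not cover the start that the DMSO cells use, so it does not describe the VIM promoter as a whole. CEACAM6 (chr19:41755280-41755579, plus strand) holds 5, and CEACAM5 (chr19:41708376-41708675, plus strand) holds 2. As examples they do not show whether CG content goes with level. In the epithelial list, CpG-rich windows made up 18.75% among the 8 members with a window and 20% among the 5 other genes with one.
VIM: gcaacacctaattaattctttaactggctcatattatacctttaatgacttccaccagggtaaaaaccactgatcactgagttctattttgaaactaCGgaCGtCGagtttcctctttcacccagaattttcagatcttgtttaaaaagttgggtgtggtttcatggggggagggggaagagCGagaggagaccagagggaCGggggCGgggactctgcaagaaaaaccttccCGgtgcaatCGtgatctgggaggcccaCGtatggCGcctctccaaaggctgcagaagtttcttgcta
CEACAM6: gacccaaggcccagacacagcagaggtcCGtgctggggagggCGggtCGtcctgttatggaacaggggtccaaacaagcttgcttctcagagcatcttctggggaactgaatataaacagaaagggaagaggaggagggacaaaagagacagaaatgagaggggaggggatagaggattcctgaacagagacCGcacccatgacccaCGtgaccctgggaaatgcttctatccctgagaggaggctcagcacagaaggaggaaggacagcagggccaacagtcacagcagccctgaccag
CEACAM5: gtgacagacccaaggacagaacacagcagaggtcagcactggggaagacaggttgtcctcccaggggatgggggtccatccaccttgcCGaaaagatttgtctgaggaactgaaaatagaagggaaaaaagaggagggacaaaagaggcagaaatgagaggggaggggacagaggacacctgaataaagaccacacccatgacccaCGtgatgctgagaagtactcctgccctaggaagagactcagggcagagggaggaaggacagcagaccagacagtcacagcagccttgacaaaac

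Members at 10 FPKM or more varied little between the 3 libraries. Their median coefficient of variation (CV) was 6.61%, with quartiles of 4.02% and 9.53%. The highest library exceeded the lowest by more than 1.5 times for 68 of the 4583 genes (1.48%), and 45 of these 68 were shorter than 200 bases. The 5 largest CVs ran from 53.2% to 80.4%. Among these genes, the signal recognition particle RNA gene RN7SL2 was at 218.65 FPKM in replicate 1 against 745.48 and 737.54 in the others, the snoRNA gene SNORD72 was at 12.786, 29.022 and 10.975, and the miRNA gene MIR6746 at 4.06, 7.59 and 20.4. Also among the 5 was SMN1, a protein-coding gene of 3097 bases, at 5.326, 25.842 and 12.976 FPKM. ZWINT, a kinetochore protein, varied least, at 52.2, 52.4 and 52.4 FPKM. Among protein-coding members at 1 to 10 FPKM the median CV over the 3 libraries was 8.44%. The counting error expected of 1 library from their mean reads had a median of 5.41%, which is not the same statistic.

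Near the threshold, the members just inside were SPRYD4, TMEM143 and ARSB, whose lowest libraries had 1.001, 1.0019 and 1.0028 FPKM. Just outside lay IQSEC2, CFAP119 and CCL2, at 0.99932, 0.99739 and 0.99716. A further 970 genes reached 1 FPKM in exactly 2 of the libraries and 1492 in exactly 1.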

How the data were processed

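A directional kit was used on total RNA, per the labels' protocols, and hg38 was the genome build, per the submitters' processing notes. The sources used here give no aligner, counter, annotation release or strand setting. Reads of overlapping or antisense genes may therefore be mixed. Levels for 58735 genes are in FPKM, deposited by the authors as 1 table with gene length, biotype and transcription factor family as other columns. Values were used as deposited. FPKM times gene length was a whole multiple of 1 constant per library within 0.01 reads for 100% of values, which gave the recovered reads; the step was tested on simulated data. Levels are means ± SD over the 3 DMSO libraries, and nothing was tested, since 1 group was described. No batch is given in the labels. Current symbols matched 58207 genes. Shared 50-base windows were counted over GENCODE 29 transcripts, and promoters come from RefSeq (GRCh38.p14).

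The members and the 31 gene lists were chosen with earlier results of these data known. Genes named were the 7 cell identity genes set for this description (FOLR1, KRT8, KRT18, KRT7, VIM, CDKN2A and SMAD4), the 25 most abundant, up to 6 of the most abundant members of each list, listed genes at 0 among simple keratins, epithelial genes, pancreas factors and tumour suppressors, protein-coding genes within 1 Mb of CDKN2A and SMAD4, 3 genes on each side of the threshold, and the 5 smallest and 5 largest CVs, of which only examples are printed. The genes of the PRMT5 and Hippo account were named for the study's subject. All other genes, among them CDH1, EPCAM, CLDN7, CLDN4, KRT20, KRT5, KRT6A, the trefoil genes, ERBB2, HOXC12 and RB1, were named after their values were seen. Alternatives were other thresholds, TPM made from FPKM, other sums and leaving out each library. Python 3.11.15, numpy 2.4.6, pandas 2.3.3 and matplotlib 3.10.9 were used. Some genes of the lists are counted but not reported here by name.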

Additional observations from a re-analysis of the deposited data

How the results depend on the processing

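The count of 11989 expressed genes was 13949 at 0.5 FPKM, 9912 at 2 FPKM, 12959 with at least 2 of the 3 libraries, and 15341 at 1 TPM. It moved by more than 1.5 times only at 5 FPKM, where it was 6772. Leaving out each library in turn gave 12287 to 12334 expressed genes, 32407 to 32516 genes at 0, and a share held by the 50 most abundant genes of 27.2% to 27.4%. Counting genes under 0.1 FPKM as absent gave 34682. The share held by the 50 most abundant genes was 15.0% without mitochondrially encoded genes, 14.0% as a share of reads and 26.3% over protein-coding genes only. The epithelial list kept 11 to 14 of its 26 genes as members under every alternative listed, and 12 without any 1 library. At 5 FPKM, 37 of 66 tumour suppressors, 1 of 26 pancreas factors and 6 of 23 mesenchymal genes were members, and at 0.5 FPKM 10 pancreas factors were. Over all 58735 genes, 6772 were members at 5 FPKM and 13949 at 0.5 FPKM. The shares of protein-coding genes and of transcription factors were not counted at these thresholds, so whether the lists differ from them there is not shown. Of 30 list counts, 16 moved by more than 1.5 times at 5 FPKM, 3 at 0.5 FPKM, 3 at 2 FPKM, 5 at 1 TPM and 1 with at least 2 of the 3 libraries. Among marker lists with no member, lung, thyroid, breast and prostate gave 2 at 0.5 FPKM, 3 at 1 TPM, and 1 with at least 2 of the 3 libraries or without replicate 3, and immune cells gave 1 at 0.5 FPKM and 2 at 1 TPM. No paired analysis was possible because 1 group was described and no result comes from a test. With 14201282 reads or more per library, depth limits mainly short genes and genes under 0.1 FPKM.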

Other observations

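Genes usually restricted to the testis and to tumours were expressed in part. Of 22 such cancer testis antigens found in the table, 5 (22.7%) were members and 14 (63.6%) were at 0. The shares over all protein-coding genes were 50.3% and 23.9%. MAGEA1 had 36.2, 32.3 and 36.0 FPKM in DMSO replicates 1, 2 and 3. MAGEA6 had 21.6 FPKM and MAGEA3 4.74, but 53.9% and 56.5% of their 50-base windows occurred in another gene, so reads could be split between these near copies. PRAME had 17.6 ± 0.545 FPKM (SD, n = 3). CT45A1 had 4.30 FPKM, with 83.7% of its windows shared.

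The share of protein-coding genes that were members ran from 39.0% on chromosome 21 and 39.1% on chromosome X to 58.9% on chromosome 16. It was 54.4% on chromosome 9, which carries CDKN2A, and 50.6% on chromosome 18, which carries SMAD4, against 50.3% over all chromosomes.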
